A study of Homo sapiens with 4 samples.

Results

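Bystander DRACG adenosines are adenosines in an almost-consensus context that lay in the tested RNAs by chance, away from the adenosine for which each RNA had been designed. The consensus context of N6-methyladenosine (m6A), written DRACH, has A, G or U at −2, A or G at −1, the adenosine, C at +1 and A, C or U at +2. DRACG keeps the bases upstream and the C at +1 but has G at +2. Members were chosen by sequence alone, as every such adenosine at least 2 nt from either end of a designed sequence of 141 nt, other than the selected adenosine at position 51. The rule gave 1263 adenosines among 556809 positions of 3949 sequences. They lay in 1008 of the 3488 sequences that came from human transcript loci. Of these sequences, 796 held 1 member, 176 held 2, 32 held 3, 3 held 4 and 1 held 7.

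The question of the series was whether the METTL3–METTL14 complex by itself prefers some sequences over others. A pool of in vitro transcripts was incubated with the recombinant complex (methylated group, 2 libraries) or without it (unmethylated group, 2 libraries) and profiled by miCLIP2. The substrate was synthetic RNA, outside any cell. Loci had been picked from miCLIP2 of HEK293T cells, a human embryonic kidney line. Members came from both classes of natural loci, 705 from sequences around adenosines found methylated in those cells (m6A class) and 558 from sequences around unmodified ones. By the labels sequences were made as 3 oligonucleotides with their own tags. The pool held 11999 oligonucleotides for 3949 distinct sequences, so that 3 did not hold for every sequence. The counts of all oligonucleotides of a sequence were summed.

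METTL3 is the catalytic subunit of the main m6A methyltransferase of messenger RNA, and METTL14 holds the RNA substrate beside it. The complex transfers a methyl group to adenosines that mostly precede a C, and its product in cells is found largely in DRACH. In miCLIP2 an antibody against m6A is crosslinked to RNA, and reverse transcription stops there. Each count is therefore a stop at 1 nucleotide, and some stops also occur in RNA without m6A, which the unmethylated libraries measure.

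The unmethylated libraries totalled 10483825 and 12028474 counts, the methylated ones 13110615 and 13265092. Signals are given as counts per 1000000 counts of the library (CPM), in the order unmethylated replicate 1 and 2, then methylated replicate 1 and 2. No count was recorded in any library at 206 members, and 647 had counts in all 4. The labels say only that experiments were done in duplicate, so that p-values measure the spread between these libraries, which may be technical. Sequences with a member were rich in G and C (median 60.3%, against 55.3% in the other sequences of both classes).

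To show what the complex met, the following windows give, for each combination of bases at −2 and −1, the called rise with the highest mean signal and then the member with the highest unmethylated signal. Capitals mark the 5 bases from −2 to +2, with the adenosine in the middle, and T stands for U. All are read 5′ to 3′ as in the deposited table.
PCDH7 at position 75: acgtggccgaGGACGttctggtcga
OGFR at position 122: gacctgcaggGGACGagccagccga
AKAP12 at position 121: agaaaaccaaAGACGtaccattttt
VHL at position 114: gccctgaagaAGACGgcggggagga
TEDC1 at position 43: tgcctctgggTGACGagatgactgt
COA5 at position 93: ctcccggtggTGACGacccctgtcc
ZC3H4 at position 86: ggaaggtattGAACGctcctcaccc
FAM20C at position 66: gcgtggagagGAACGggctccacag
DUSP16 at position 100: aaagcagtttAAACGcagaagctgc
XPC at position 70: aggcagaaagAAACGgagcaagccc
CRKL at position 13: tatagatggtTAACGaggaagacga
CDKN1A at position 109: ttcctggcacTAACGttgagcccct

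Summed over all 1263 members without a count filter, the signal was 1767 and 1815 CPM without the complex and 3863 and 3575 CPM with it. The means were 1791 ± 33.8 and 3719 ± 204 CPM (SD, n = 2 each), a ratio of 2.08. Both methylated libraries lay above both unmethylated ones. The difference was larger than the spread between replicates. An exact two-sided permutation test of the libraries gave p = 0.333, and no lower value is possible with 2 libraries a group, so no summed value here could pass a threshold of 0.05.

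The bases upstream separated the members. With G at −2 and G at −1 (418 members), the summed signal was 594.7 and 674 CPM without the complex and 2255 and 2007 CPM with it, a ratio of 3.36. GAACG (198 members) had 154.1, 153.7, 335.8 and 297.8 CPM, a ratio of 2.06. AGACG (258 members) had 368.6, 367.5, 610.9 and 625.7 CPM, a ratio of 1.68. The same ratio of 1.68 was found for UGACG (206 members), with 261.4, 219.6, 417.4 and 389.7 CPM. AAACG (127 members) showed the smallest difference among combinations that were higher, with 113, 116.4, 128.4 and 131.6 CPM and a ratio of 1.13. In these 5 combinations the groups did not overlap.

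UAACG (56 members) went the other way, with 275.5 and 283.8 CPM without the complex and 116.2 and 123.3 CPM with it, a ratio of 0.428. A single adenosine held 93.1% of that unmethylated signal, the UAACG at position 109 of the sequence from CDKN1A, which encodes a cyclin-dependent kinase inhibitor. Without it the other members of the combination had 19.8, 18.8, 34.9 and 35.5 CPM, a ratio of 1.82. The direction for UAACG therefore rested on 1 site. That site also held 14.5% of the unmethylated signal of all members, and the ratio over all members was 2.37 without it. Signal was unevenly spread elsewhere too. The 10 members with the most counts within a combination held 27.4% of the counts of GGACG and 60.9% of those of AAACG, and without them the ratios were 3.39 and 1.54.

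**Figure D1:**
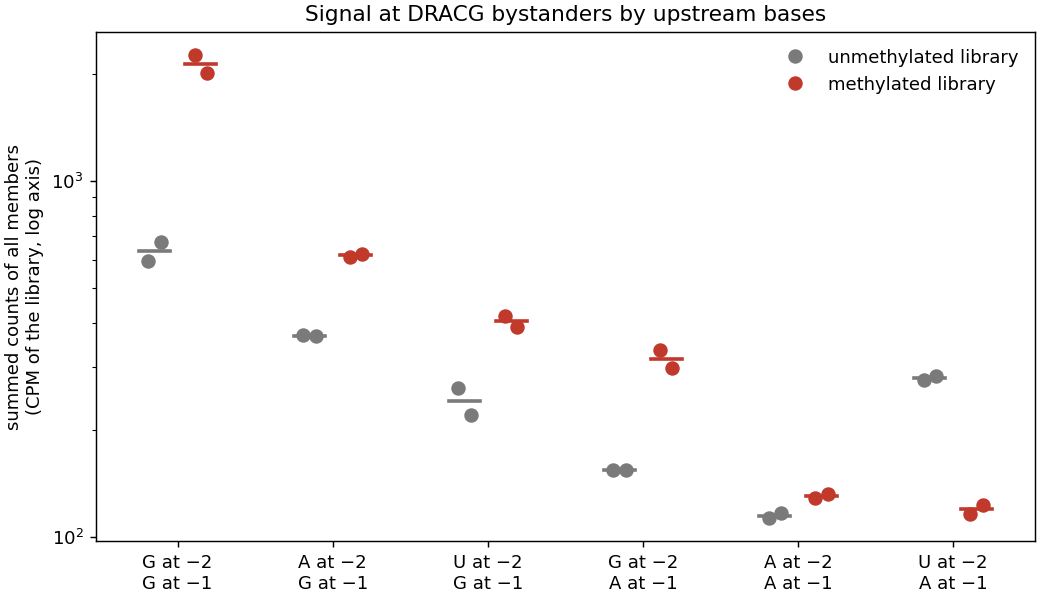
Summed signal of all DRACG bystanders in each library (points, CPM, log axis) and the mean of each group (lines), by the bases at −2 and −1. The GGACG members reach 2255 and 2007 CPM with the complex against 594.7 and 674 CPM without it, and only UAACG lies lower with the complex, through the CDKN1A site.

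Counted site by site without a filter, both methylated libraries lay above both unmethylated ones in CPM at 513 of 1263 members (40.6%) and below them at 67 (5.3%). Over all 556809 positions the shares were 14.1% above and 12.4% below. The libraries overlapped at 683 members, including those without counts. Among GGACG members 239 of 418 lay above (57.2%). The shares were 34.5% of AGACG, 33.9% of UAACG, 33.8% of GAACG, 33.5% of UGACG and 23.6% of AAACG, all above that of all positions. UAACG, lower in its sum, thus had 19 of 56 members above and 2 below.

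DRACH bystanders of the same 2 classes and range of positions (8271 adenosines) were taken from sequences with or without a member. The sets were thus not matched by sequence. DRACH also had its highest share above with G at −2 and G at −1 (54%) and its lowest with A at both (18.8%), and 34.7% in all. DRACG members had the larger share above in 5 of the 6 combinations, GA being the exception (33.8% against 34.5%). They also had the larger share below both unmethylated libraries, 5.3% against 3.6% in all, and in each of the 6 combinations. Libraries that did not overlap were thus more frequent among DRACG in both directions. Sites without any count were fewer among DRACG (206 of 1263) than among DRACH (1962 of 8271), and the part of depth in these shares was not tested. The difference in shares itself was not tested.

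**Figure D2:**
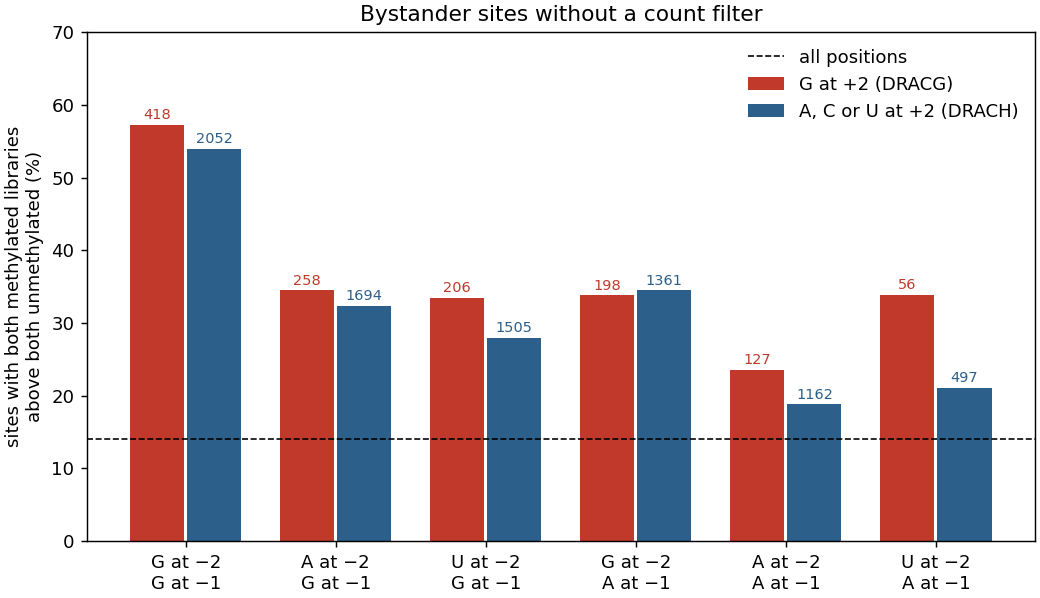
Share of bystander adenosines whose methylated libraries both lay above both unmethylated ones (bars, percent, no count filter), by the bases at −2 and −1, with the number of adenosines above each bar and all positions as a dashed line at 14.1%. Bars for G at −2 and G at −1 stand highest, at 57.2% for DRACG and 54% for DRACH, and those for A at −2 and A at −1 lowest.

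Whether G at +2 went with a smaller change was asked within each library, as the summed signal of DRACG over that of DRACH. This quotient was 0.221 and 0.22 without the complex and 0.197 and 0.18 with it (0.221 ± 0.00085 and 0.188 ± 0.012, SD, n = 2 each), so that DRACG changed by 0.853 times the factor of DRACH (2.08 against 2.44). The exact permutation p was 0.333, again the smallest possible. Without the CDKN1A site the relative change was 0.975. With G at −2 and G at −1 it was 0.939, with quotients of 0.225 and 0.24 without the complex and 0.232 and 0.204 with it, which overlapped (exact permutation p = 0.667). A difference between GGACG and its DRACH counterparts was thus not larger than the spread between replicates. Among those counterparts the ratio was 4.02 for GGACA, 3.42 for GGACU and 3.31 for GGACC, so that 3.36 for GGACG lay between the latter values.

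Other combinations differed more. The relative change was 0.757 with G at −2 and A at −1 (2.06 against 2.72), 0.749 with A at both (1.13 against 1.51) and 0.91 with A at −2 and G at −1 (1.68 against 1.84). It was 1.12 with U at −2 and G at −1 (1.68 against 1.5). In each of these the quotients of the groups did not overlap, and each exact permutation p was 0.333. For UAACG the relative change was 0.225, and 0.958 without the CDKN1A site.

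A minimum of 10 counts in 2 or more of the 4 libraries was met by 491 of the 1263 members, which were tested singly among 142938 sites with edgeR's quasi-likelihood test. At an adjusted p under 0.05, 190 rose (38.7%) and 5 fell. Over all sites tested 3.7% rose and 2.01% fell. Of the 491, 207 passed the count minimum only through the methylated libraries, and 101 of the rises were among those. Over all 142938 sites tested, 24367 passed only through the methylated libraries, and 2315 of these rose. The minimum was met in both unmethylated libraries by 266 members, of which 89 rose (33.5%) and 5 fell, with a median log2 fold change of 0.58. Among all sites that met it there, 2.75% rose and 2.66% fell. GGACG gave 52 of these 89 rises, out of 104 members, and AAACG 1 out of 23.

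Over the tested members of each combination, rises were 113 of 201 for GGACG (56.2%) and 23 of 67 for GAACG. They were 31 of 98 for AGACG, 17 of 74 for UGACG, 4 of 38 for AAACG and 2 of 13 for UAACG. For DRACH with G at −2 and G at −1, 475 of 826 tested sites rose (57.5%). These counts include sites that passed through the methylated libraries alone. DESeq2, run on the same sites, called 122 rises and 3 falls, all 122 of them among the 190. It gave no adjusted p for some of the 190, and these count here as not called. Leaving out methylated replicate 1 or 2 left 77 and 73 rises, with 110 of the 190 still tested in each case.

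Whole sequences also changed between groups, so each site was set against the counts of its own sequence in each library. In this fit 155 members rose and 0 fell by edgeR with adjustment over all sites, and 150 of the 190 rises were among them. Over all sites 1.8% rose and 0.403% fell.

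Named GGACG members ran from strong rises to overlapping values. The adenosine at position 75 of the PCDH7 sequence (a protocadherin gene, chromosome 4, selected adenosine at 30722702) had 7.73 and 13.3 CPM without the complex and 122 and 150 CPM with it. Its log2 fold change was 3.65 ± 0.31 (SE; edgeR adjusted p = 4.57e-08). Counts of the whole sequence went from a mean of 2527 to 7284, and against them the change was 2.39 (edgeR adjusted p = 3.51e-08). All 3 tags of this sequence were called higher. The selected adenosine of the same RNA, itself a GGACG, changed by 1.09 on the log2 scale and was not called (edgeR adjusted p = 0.118). In this RNA the bystander therefore passed the test and the designed site did not, and the difference between them was not tested.

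EIF3B, which encodes a subunit of a translation initiation factor (chromosome 7, selected adenosine at 2379400), gave the largest rise measured in all libraries. Its GGACG at position 78 had 0.477, 0.0831, 22.3 and 17.5 CPM, a log2 fold change of 6.14 ± 0.49 (SE; edgeR adjusted p = 1.44e-08), and the unmethylated libraries held 5 and 1 counts. Without unmethylated replicate 1 the change was 7.69 and without unmethylated replicate 2 it was 5.36. The window was as follows, with capitals as above.
EIF3B at position 78: acagcaacgtGGACGactgggaaga
In contrast, the GGACG of OGFR, an opioid growth factor receptor gene, at position 122 had the highest unmethylated signal of its combination and was not called. It had 46 and 75.2 CPM without the complex and 53.5 and 62.3 CPM with it, and the libraries overlapped (log2 fold change −0.11 ± 0.28 SE, edgeR adjusted p = 0.897). Its predicted probability of being unpaired was 1, against 0.242 for PCDH7 and 0.988 for EIF3B.

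A few GGACG members had no unmethylated count. The adenosine at position 40 of the COL4A2 sequence, from a gene of type IV collagen, had 23 counts in each methylated library (1.75 and 1.73 CPM). This was at least 6.51 times the floor of 3 counts per library (edgeR adjusted p = 0.000376). A sequence on chromosome 22 in which 2 annotated genes overlap (selected adenosine at 42871417) had 12 and 13 methylated counts at position 138, at least 3.54-fold higher (edgeR adjusted p = 0.00723). ITPRIPL1 at position 129 had 11 and 11, at least 3.11-fold higher (edgeR adjusted p = 0.0116). These sites could be tested only because the methylated libraries met the minimum. The same holds for EIF3B and for the rises in RRP1B, on chromosome 9, in LENG8, CRKL and ARGLU1 given below, so that their changes had to be large and serve as examples only.

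Named AGACG members included rises and overlapping values. At AKAP12, which encodes a scaffold for protein kinase A, the adenosine at position 121 had 15.8, 27.9, 65.3 and 92.4 CPM. All methylated values lay above all unmethylated ones, and the log2 fold change was 1.80 ± 0.30 (SE; edgeR adjusted p = 0.000396). The selected AAACU of that RNA changed by 0.40 and was not called (edgeR adjusted p = 0.608). RRP1B, which encodes a nucleolar protein of ribosomal RNA processing, had 4 and 1 unmethylated and 49 and 43 methylated counts at position 111 (log2 fold change 3.88 ± 0.60 SE, edgeR adjusted p = 0.00017). Without unmethylated replicate 1 the RRP1B change was 5.18 and without unmethylated replicate 2 it was 3.16. VHL, the gene of the subunit that recognises hypoxia-inducible factor for degradation, held the AGACG with the highest unmethylated signal, at position 114. Its values of 33.4, 23.9, 18.9 and 26 CPM overlapped between groups (log2 fold change −0.38 ± 0.28 SE, edgeR adjusted p = 0.517).

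Named UGACG members changed by 0.21 to 3.30 on the log2 scale. TEDC1, at position 43 and only 8 nt before its selected UGACU, had 11.4, 13.2, 27.9 and 26.4 CPM (log2 fold change 1.11 ± 0.28 SE, edgeR adjusted p = 0.0165). The call ended without unmethylated replicate 1 and without either methylated replicate. CSPG4, a proteoglycan gene, had 1.91, 1.16, 18.6 and 12.1 CPM at position 56. This log2 fold change of 3.30 ± 0.38 (SE; edgeR adjusted p = 2.87e-06) was the largest of the UGACG members counted in all libraries. It lay 5 nt behind a selected GGACU that changed by 4.65. COA5, named for cytochrome c oxidase assembly, had 35.9, 15.8, 35.2 and 25.2 CPM at position 93, which overlapped (log2 fold change 0.21 ± 0.32 SE, edgeR adjusted p = 0.795).

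Among GAACG members, ZC3H4, a zinc finger protein gene, had 7.15, 5.15, 20.2 and 29.3 CPM at position 86 (log2 fold change 1.98 ± 0.31 SE, edgeR adjusted p = 0.000155). In its deepest tag alone the change was 1.01 and not called (edgeR adjusted p = 0.0813). The selected GGACA of this RNA changed by −0.02 and was not called (edgeR adjusted p = 0.987). A sequence on chromosome 9 (selected adenosine at 98080942), where NANS and TRIM14 overlap, had 2 and 1 unmethylated and 27 and 24 methylated counts at position 29. Its log2 fold change was 3.73 ± 0.72 (SE; edgeR adjusted p = 0.0019), or 4.33 without unmethylated replicate 1. FAM20C, the gene of a kinase of secreted proteins, had 29.8, 22.6, 46.3 and 24.7 CPM at position 66. Methylated replicate 2 lay between the unmethylated libraries, and the change of 0.42 ± 0.30 (log2 ± SE) was not called (edgeR adjusted p = 0.5).

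With A at −1 and A or U at −2, 4 of 38 and 2 of 13 tested members rose. The AAACG with the highest signal among the 4 called rises, in DUSP16, a MAP kinase phosphatase gene, had 2.19, 3.82, 8.7 and 7.54 CPM at position 100 (log2 fold change 1.39 ± 0.35 SE, edgeR adjusted p = 0.0182). Against the counts of its sequence it was 1.00 and not called (edgeR adjusted p = 0.12), and the call also ended without unmethylated replicate 1 and without either methylated replicate. LENG8 at position 61 had 2 and 2 unmethylated and 30 and 26 methylated counts (log2 fold change 3.48 ± 0.67 SE, edgeR adjusted p = 0.00171). Both called UAACG rises were weak in signal. CRKL, an adaptor protein gene, had 0.668, 1.16, 3.66 and 2.64 CPM at position 13 (log2 fold change 1.72 ± 0.47 SE, edgeR adjusted p = 0.0285). That call ended in DESeq2, without unmethylated replicate 1 and without either methylated replicate (adjusted p of 0.1 to 0.31, edgeR or DESeq2). ARGLU1 had 0.572, 0.416, 2.06 and 3.24 CPM at position 88 (log2 fold change 2.38 ± 0.54 SE, edgeR adjusted p = 0.00755). Counts of the whole ARGLU1 sequence went from a mean of 887.5 to 2931.5, and against them the change was 0.93 and not called (edgeR adjusted p = 0.514).

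All 5 members that fell lay in sequences that lost counts as a whole. CDKN1A at position 109 (chromosome 6, selected adenosine at 36687012) had 256 and 265 CPM without the complex and 81.3 and 87.7 CPM with it (log2 fold change −1.65 ± 0.25 SE, edgeR adjusted p = 0.000146). The sequence went from a mean of 86494.5 to 48331 counts, while its selected GGACA rose by 3.57 on the log2 scale (edgeR adjusted p = 1.1e-06). As a share of the sequence the site went from 3.83% and 3.09% to 2.33% and 2.28%, and the change against the sequence was −0.58 and not called (edgeR adjusted p = 0.103). XPC, the gene of a DNA damage sensor, had 18.6, 17.1, 8.92 and 8.29 CPM at its AAACG (log2 fold change −1.08 ± 0.28 SE, edgeR adjusted p = 0.0231). Against its sequence the change was 0.12, and the fall was not called without methylated replicate 1 (edgeR adjusted p = 0.174) or 2 (0.281).

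HDAC5, a histone deacetylase gene, held a pair of the falls, a GGACG at position 112 (4.2, 4.49, 1.68 and 1.28 CPM, log2 fold change −1.58) and an AGACG at position 121 (−1.45). Both are in 1 RNA whose counts went from a mean of 12164 to 4895, and their changes against it were −0.02 and 0.11. The fall at position 112 was also not called without methylated replicate 1 or 2 (edgeR adjusted p = 0.0769 and 0.255) or in DESeq2 (0.0606). INSYN1, at position 121, had the deepest fall, from 3.34 and 1.66 to 0.458 and 0.226 CPM. Its log2 fold change was −2.84 ± 0.60 (SE; edgeR adjusted p = 0.004), and against the counts of its sequence it was −1.91 (edgeR adjusted p = 0.0983). The INSYN1 call also ended without methylated replicate 2 (edgeR adjusted p = 0.151). None of the 5 falls was called against the sequence.

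**Figure D3:**
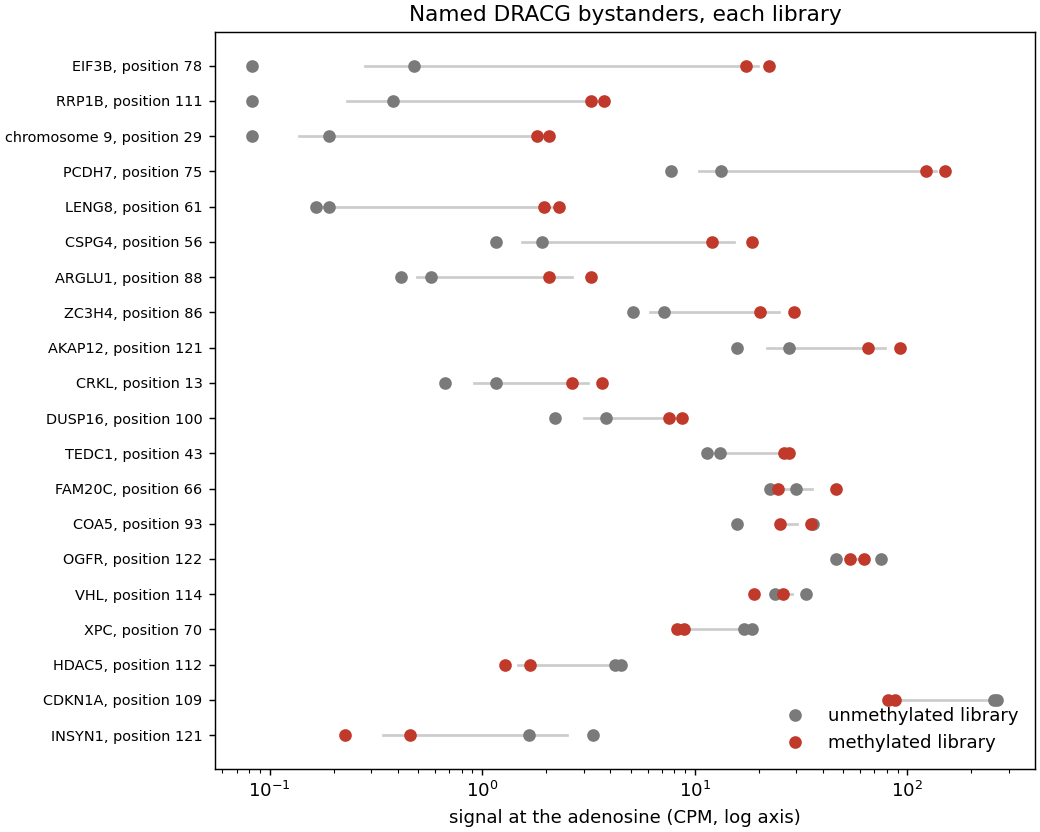
Signal of 20 named DRACG bystanders in each library (points, CPM, log axis), with a line between the group means, ordered by the ratio of the means. The 3 largest ratios, EIF3B at position 78 first, start below 0.5 CPM, while the groups overlap in OGFR, VHL, COA5 and FAM20C, and XPC, HDAC5, CDKN1A and INSYN1 lie lower with the complex.

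Some RNAs held several members, which share their counts and depth. FBXO46, an F-box protein gene, held 4. Its GGACG sites at positions 78 and 126 rose by 3.08 (edgeR adjusted p = 0.000759) and 3.05 (6.02e-05) on the log2 scale, and its GAACG at position 138 by 2.86 (0.0464). The UGACG at position 89 of the same RNA changed by 0.67 and was not called (edgeR adjusted p = 0.445). In RTL8C an AGACG at position 71 (1.89) and a GGACG at position 138 (2.64) were called, while the UGACG between them, at position 78, was not (0.69). The FBXO46 rises and that of RTL8C at position 138 met the count minimum only through the methylated libraries. They therefore serve as examples only. A sequence on chromosome 2 where CAB39 and another gene overlap (selected adenosine at 230713185) also held 4, of which 3 were tested and 0 called. Its GGACG at position 45 changed by 0.65 (edgeR adjusted p = 0.438), and the GAACG sites at positions 15 and 80 by −0.08 and −0.58. The SNX21 sequence, from a sorting nexin gene, held 7 members, 6 of them GGACG, but all were sparse. Only 2 of those could be tested and neither passed, with a GGACG at position 74 at 0.286, 0.249, 0.839 and 1.36 CPM (log2 fold change 1.97, edgeR adjusted p = 0.126).

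The change was centred on the adenosine. Summed over all members, the ratio of methylated to unmethylated signal was 2.08 at the adenosine and between 0.829 and 1.08 at each of the 5 nucleotides on either side. With G at −2 and G at −1 it was 3.36 at the adenosine and 1.46 at the nucleotide before it. The nucleotide behind the adenosine had 1361 and 1627 CPM without the complex and 1261 and 1217 CPM with it, a ratio of 0.829 that was 1.03 without the 10 members with the most counts and 1.14 for GGACG alone. At the nucleotide before it, 43 of 441 tested sites rose (9.75%), above the 3.7% of all sites, and at the other 9 neighbours the share lay between 2.3% and 6.56%.

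**Figure D4:**
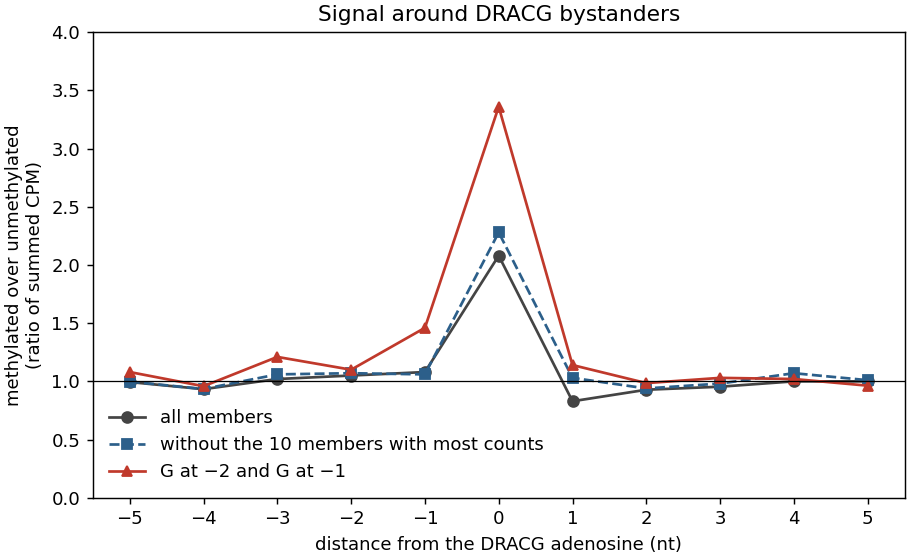
Ratio of methylated to unmethylated summed CPM at each distance from the DRACG adenosine, for all members (circles), without the 10 members with the most counts (squares) and for G at −2 and G at −1 (triangles). The peak is at the adenosine (2.08, 2.28 and 3.36), with a shoulder of 1.46 at −1 for the last set.

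Adenosines that break the motif upstream or at +1 had ratios of summed signal between 0.898 and 1.15. With C at −2, a purine at −1 and CG behind (334 adenosines) the summed signal was 524.5, 456, 557.6 and 505.8 CPM, a ratio of 1.08, and the groups overlapped. With C or U at −1 before CG (1420 adenosines) the ratio was 1.15, from 2206 and 2332 to 2708 and 2510 CPM. Of those tested, 8 of 117 (6.84%) and 30 of 424 (7.08%) rose, above the 3.7% of all sites. With the same upstream bases and G at +2 but no C at +1 the ratio was 0.898, and 107 of 4274 tested sites rose (2.5%, against 3.7% of all sites) while 202 fell. Where the DRACG adenosine was the selected one (100 sequences, 97 of them GGACG), the summed signal was 219.9, 303.9, 1064 and 851 CPM, a ratio of 3.66, against 3.36 for GGACG bystanders.

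Members were then described by features that the rule did not use, for GGACG as the largest combination and over all of its members without a filter. These are values of sums without a test, and the same RNAs enter several of them. Single sites weigh on them. The PCDH7 site had means of 10.5 CPM without and 136 CPM with the complex. It is in the sets with the highest ratio by pairing, bases at +3 and −3, position, distance and designed class. The OGFR site (60.6 and 57.9 CPM) is in those with the lowest ratio by pairing, base at −3, position, distance and designed class. Both were kept in these sums. By predicted pairing, the ratio was 5.63 where the adenosine was unpaired with a probability under 0.25, 3.39 between 0.25 and 0.75 and 2.78 above 0.75. The first set had 96.05 and 101.2 CPM without the complex and 578 and 532.3 CPM with it, from 118 members. The last had 354.5, 429.7, 1141 and 1037 CPM from 215 members. Per member the methylated signal was thus similar (4.7 and 5.07 CPM), while the unmethylated signal was 0.836 and 1.82 CPM. The DRACH counterparts had ratios of 4.31, 3.82 and 3.35 in the same order.

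At the base behind the motif (+3), GGACG followed by U had a ratio of 4.66, with 91.95, 119.7, 497.5 and 489.2 CPM from 77 members. The ratio was 3.54 with A, 3.14 with G and 2.63 with C. For DRACH with the same upstream bases it was 3.94 with U, 4.13 with A, 3.16 with G and 3.62 with C, so that U and A were also the highest there. At −3 the ratio of GGACG was 5.08 with A, 3.71 with U, 3.27 with C and 2.05 with G. The corresponding DRACH values were 3.72, 3.76, 2.76 and 3.54, an order that differed.

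Position in the RNA bore on the depth. Of members at positions 3 to 30, 22.1% could be tested, against 53.8% at positions 81 to 110. Of members in sequences with under 50% G and C, 12.1% could be tested, against 50.7% above 60%. For GGACG the ratio was 3.76 at positions 3 to 30, 4.11 at 31 to 50, 4.27 at 52 to 80, 3.17 at 81 to 110 and 2.46 from 111 on. That last sum, 193.8 CPM without and 477 CPM with the complex, includes the uncalled OGFR site at 60.6 and 57.9 CPM. By distance from the selected adenosine the GGACG ratio was 2.99 within 10 nt, 4.95 from 11 to 30 nt and 2.87 beyond. The PCDH7 site is in the set from 11 to 30 nt and the OGFR site in the set beyond 30 nt. In the m6A class GGACG bystanders had a ratio of 3.98 (293.5, 336.5, 1295 and 1211 CPM). In the unmodified class it was 2.75 (301.2, 337.4, 959.5 and 795.9 CPM), a difference that was not tested. The m6A sum includes the PCDH7 site (10.5 and 136 CPM) and the unmodified sum the OGFR site (60.6 and 57.9 CPM). Over all DRACG members the ratio was lower in the m6A class (2 against 2.21). The sum of that class, 1150 CPM without and 2302 CPM with the complex, includes the CDKN1A site at 260 and 84.5 CPM. This order of the classes rested on that site. The median log2 change of tested GGACG members, including those that passed through the methylated libraries alone, was lower in the m6A class (1.86 against 2.01). The quotient of GGACG over its DRACH counterparts changed by 1.06 in the m6A class and by 0.842 in the other.

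Within an RNA, members and other sites shared a part of their changes. Over 366 members whose selected adenosine was also tested, the log2 fold changes of both correlated with a Pearson r of 0.283 and a Spearman rho of 0.281 across sites. These pairs share the depth of 1 sequence, and with each site set against its sequence the values were 0.0561 and 0.0425. Where a tested member and a tested DRACH bystander of the same upstream bases lay in the same sequence (157 members in 138 sequences), the member changed more in 85 and less in 72. The median difference was 0.11 on the log2 scale (quartiles −1.07 and 1.09). For GGACG it was 0.25, with 52 of 89 members larger, for AGACG 0.11 (16 of 30) and for GAACG 0.03 (11 of 20). It was −0.33 for UGACG, with 5 of 15 larger, and −0.43 for AAACG with 1 of 3.

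The 3 tags of a sequence are repeat measurements of 1 RNA. Tested separately, 86 members could be read in all 3 tags. Of these, 25 rose in all 3, 15 in 2, 16 in 1 and 30 in none, and 74 had 3 changes of the same sign. Between tags the log2 fold changes correlated with a Pearson r of 0.672 to 0.726 over 118 to 126 members. The same 21-nt window was found in another designed sequence for 32 of the 1116 members at least 10 nt from either end, and in 4 cases the copy was the selected adenosine there. Both copies were tested in 5 pairs, of which 4 had the same call, with a median difference of 0.22 and a largest of 2.74 on the log2 scale.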

How the data were processed

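The authors deposited 1 table of raw counts per nucleotide position, 141 positions for each oligonucleotide and library, without normalization. Per the submitters' processing notes FastQC 0.11.8, STAR 2.7.3a and bedtools 2.27.1 were used. What each tool did, whether duplicates were removed and which build was used is not given in the sources used here. Duplicate reads, if kept, would make counting intervals too narrow.

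Counts of the oligonucleotides of a sequence were summed. Sites that reached 10 counts in 2 or more of the 4 libraries entered edgeR 4.0.16 (quasi-likelihood test, TMM scaling, group as the only term, two-sided, Benjamini-Hochberg over all 142938 sites, threshold 0.05) in R 4.3.3. The test was checked on simulated data, where it called 33 of 33 8-fold rises, 27 of 34 4-fold rises and 0 of 33 2-fold rises. Of simulated falls it called 21 of 24 at 8-fold, 14 of 24 at 4-fold and 1 of 27 at 2-fold, and of unchanged sites 2 of 133143. Falls of 4-fold and 8-fold were thus called less often than rises of the same size. A site that was not called may therefore still have changed by 2-fold or 4-fold, or have fallen by more. Standard errors were derived from the change and its F statistic. Summed signals used no filter and an exact two-sided permutation test of the libraries. Bounds used a floor of 3 counts per library, which covers counting error only. Pairing was predicted with ViennaRNA 2.7.2 on the 141-nt sequence. Coordinates are those of the selected adenosine in the deposited table; of 89 sequences with a 40-nt match to RefSeq promoters of GRCh38.p14, 88 had the matching coordinate. Genes were named from RefSeq overlap where exactly 1 gene overlapped (3033 of 3488 loci). Members and lists were chosen with earlier results of these data known. Named members were, for each upstream combination, the called rise with the highest mean CPM, that with the largest change counted in all libraries and the member with the highest unmethylated CPM, plus the 3 largest falls and the 3 largest rises without unmethylated counts; loci on chromosome 8 were not named. FBXO46, RTL8C, SNX21 and the CAB39 locus were named for holding 4 or more members. HDAC5 at position 121 was named after its value was seen. Alternatives were DESeq2 1.42.0, other scalings, filters, tags as sites, a replicate block and leaving out each library. Summaries were made in Python 3.11.15.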

Additional observations from a re-analysis of the deposited data

Results flagged for a closer look

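The summed signal of UAACG bystanders was lower in both methylated libraries than in both unmethylated ones (ratio 0.428), while that of the other 5 combinations of upstream bases was higher in both. It stands out because the groups of sites moved in opposite directions under the same contrast. The difference between combinations was not tested. The CDKN1A adenosine at position 109 held 93.1% of the unmethylated UAACG signal, and the ratio was 1.82 without it.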

How the results depend on the processing

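The main analysis called 190 members higher and 5 lower. Counts moved by over 1.5 times with at least 50 counts required (114 higher, 2 lower), in DESeq2 (122 higher, 3 lower) and, for the falls, with the total of the sequence as offset (0 lower). Leaving out a library gave 73 to 182 rises and 1 to 6 falls, with fewer sites tested when a methylated library was missing. Library totals without TMM gave 191 rises. With no count minimum, 1057 members were tested and 190 rose (18%), of which 178 were among the 190 of the main analysis. Tags as separate sites gave 261 rises among 663 tag-level sites tested. These rises lay in 164 members, of which 154 were among the 190. A replicate block gave 198 rises and 5 falls, and 189 of the 190 rises were among them. Replicate numbers are only shared between groups, and deviations of same-numbered libraries correlated at −0.0835. Summed values changed direction in the following cases. The UAACG ratio (0.428) was 1.82 without the 10 members with the most counts over all combinations, among them the CDKN1A member. It was the same without the CDKN1A member alone (an alternative chosen after seeing the data) and 2.48 in the unmodified class. There the change relative to DRACH was 1.21. For GGACG that relative change (0.939) was 1.06 in the m6A class. The cause was not tested. Of 19 called named members, 10 stayed called under every alternative that tested them. Against the sequence the log2 changes of OGFR (0.26), VHL (0.38) and XPC (0.12) turned positive. With single libraries left out, OGFR ranged from −0.45 to 0.33, COA5 from −0.24 to 0.87 and FAM20C from −0.10 to 0.87. Depth limits the rest: 772 members were not tested.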
